A study of Mus musculus with 12 samples.

Results

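The genes described here are 10 genes of the bone morphogenetic protein (BMP) pathway, found by symbol in a table of 23284 genes: the ligand genes Bmp2, Bmp4, Bmp5 and Bmp7, the extracellular modulator genes Chrd, Nog and Twsg1, and the target genes Id1, Id2 and Id3. All 10 were in the table and all 10 passed the filter on low counts, as did 14412 genes in all. Polyadenylated RNA was sequenced from whole mouse embryos, each on its own, collected 9.0 days post coitum with about 9 to 10 somites. Of the 12 embryos, 8 carry CDKO in their titles and are labelled as null for Tgif1 and Tgif2, a related pair of homeodomain repressors of transcription. The series describes these as conditional double mutants. The other 4 are labelled wild type (WT). All 12 have a mixed C57BL/6 x 129Sv background and no treatment, and no source used here gives the Cre driver, the deleted exons or the litters.

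BMPs are secreted dimers of the TGF-beta family. They bind paired type I and type II receptors, which phosphorylate Smad1, Smad5 and Smad9, and these enter the nucleus with Smad4. Id1, Id2 and Id3 are direct targets of these Smads and encode helix-loop-helix proteins that block bHLH transcription factors. Chordin and noggin, made in the node and notochord of the mouse embryo, bind BMPs and keep them from their receptors, and the balance of BMP and its antagonists sets dorsal and ventral fates in the neural tube and shapes the forebrain and heart.

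Promoter sequence is shown for the ligand gene with the largest rise (Bmp4), the modulator gene that fell (Twsg1) and the Id genes that the sequence table holds (Id2 and Id3). Each is the 250 bases before the RefSeq start on GRCm38.p6, read 5′ to 3′ on the gene's strand: chr14:46390670-46390919 on the minus strand for Bmp4, chr17:65951188-65951437 on the minus strand for Twsg1, chr12:25096093-25096342 on the minus strand for Id2 and chr4:136143572-136143821 on the plus strand for Id3. Capitals mark matches on either strand to TGTCA, the core bound by Tgif proteins, to GGCGCC, a GC-rich element bound by Smad1 and Smad5, or to CAGAC, the Smad box.
Bmp4: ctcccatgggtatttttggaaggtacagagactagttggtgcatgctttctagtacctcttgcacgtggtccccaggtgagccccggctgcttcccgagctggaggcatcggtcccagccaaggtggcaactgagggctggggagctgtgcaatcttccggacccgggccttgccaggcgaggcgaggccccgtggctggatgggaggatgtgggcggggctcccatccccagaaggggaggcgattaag
Twsg1: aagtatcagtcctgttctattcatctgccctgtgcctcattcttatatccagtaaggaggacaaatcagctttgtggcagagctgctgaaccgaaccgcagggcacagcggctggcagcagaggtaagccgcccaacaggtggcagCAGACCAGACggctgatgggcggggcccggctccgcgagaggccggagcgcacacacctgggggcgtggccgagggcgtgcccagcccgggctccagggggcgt
Id2: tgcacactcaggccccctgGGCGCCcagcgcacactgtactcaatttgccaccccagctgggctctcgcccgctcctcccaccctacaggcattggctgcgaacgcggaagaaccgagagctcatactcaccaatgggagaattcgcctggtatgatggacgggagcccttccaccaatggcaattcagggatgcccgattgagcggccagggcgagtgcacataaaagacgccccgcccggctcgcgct
Id3: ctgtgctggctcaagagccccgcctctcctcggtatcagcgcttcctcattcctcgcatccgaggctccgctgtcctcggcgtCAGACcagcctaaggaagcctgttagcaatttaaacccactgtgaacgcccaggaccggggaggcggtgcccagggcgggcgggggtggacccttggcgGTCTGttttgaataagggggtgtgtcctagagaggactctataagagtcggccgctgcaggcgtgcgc
The Twsg1 window held 2 adjoining copies of CAGAC, 99 and 104 bases before the start. The Id3 window held 2 matches to CAGAC, 68 and 167 bases before the start, and the Id2 window held 1 GGCGCC, 231 bases before it. No match to the 3 motifs was found in the Bmp4 window. TGTCA was in none of the 6 member windows in the table (also Bmp5 and Chrd). No marked match overlapped another. Of 32851 promoter windows of this length, 40.0% held TGTCA, 9.6% held GGCGCC and 42.2% held CAGAC, so these matches are a description of letters and not of binding.

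The libraries held 16802367 to 21346245 counts in the CDKO-labelled embryos and 17296017 to 20080786 counts in WT embryos. Levels are in CPM, which is 1e+06 times the count over the TMM-scaled library total. Tgif1 averaged 6.20 ± 0.528 CPM in the CDKO-labelled embryos and 60.9 ± 2.52 CPM in WT embryos (SD, n = 8 and 4), and all 8 lay below every WT embryo. Tgif2 was not lower, at 97.9 ± 11.8 CPM in CDKO-labelled and 87.3 ± 1.17 CPM in WT embryos (edgeR adjusted p = 0.0958), so its genotype is taken from the labels alone. If only some exons were deleted, counts over a whole gene might not show it, and Tgif2 has 2 near-identical pseudogenes. CDKO-labelled embryo 2 stood apart. Its tail bud genes summed to 50.0 CPM, against 110.4 to 223 CPM in the other CDKO-labelled embryos and 257.4 to 348.8 CPM in WT embryos. Its heart genes summed to 4315 CPM, against 2399 to 3196 CPM in the other CDKO-labelled embryos and 1559 to 1978 CPM in WT embryos. Its red cell markers summed to 37.7 CPM. The other CDKO-labelled embryos had 245.8 to 1725 CPM and WT embryos 813.3 to 1360 CPM. Results shown to rest on this embryo are given with and without it, but the fits adjusted for the red cell score all include it.

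Of the 10 BMP genes, 4 rose in the CDKO-labelled embryos (Bmp2, Bmp4, Id1 and Id2), 2 fell (Bmp5 and Twsg1) and 4 did not pass (Bmp7, Chrd, Nog and Id3) by edgeR's quasi-likelihood test at an adjusted p of 0.05. Over all genes tested 26.6% rose and 24.9% fell, so the count by itself does not set these genes apart. In Bmp4 all 8 CDKO-labelled embryos lay above every WT embryo, as in 17.5% of all genes. In Twsg1 they all lay below, as in 17.1% of all genes. Groups thus did not overlap in 2 of the 10 genes, against 34.7% of all genes. In whole-embryo RNA, fewer cells of a type and less RNA per cell cannot be told apart. The median log2 fold change was 0.14 over the 10 genes and 0.01 over all genes tested. The Id1, Id2 and Bmp5 calls were small and sensitive to single embryos, and the Bmp4, Bmp2 and Twsg1 calls held in all 26 alternatives run.

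**Figure D1:**
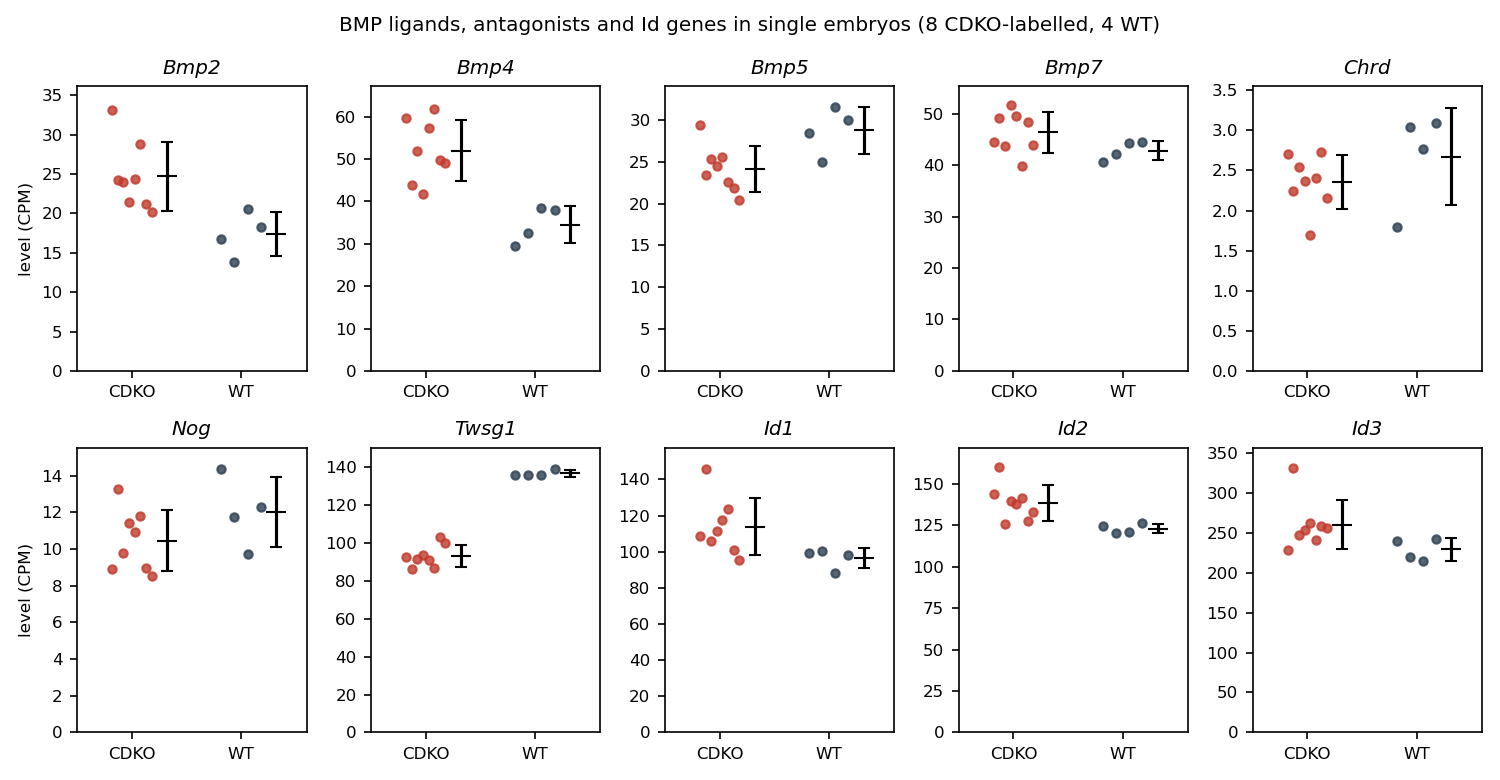
Level of each of the 10 genes in CPM (vertical axes from 0), 1 point per embryo, CDKO-labelled embryos in red and WT embryos in dark blue; bars are mean ± SD (n = 8 and 4). The groups are apart in Bmp4 and Twsg1 and overlap in the other 8 genes, and embryo 2 is the highest CDKO-labelled point for Id1, Id2, Id3 and Nog.

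Among the ligands, Bmp4, which patterns posterior mesoderm, dorsal neural tissue and the heart region, showed the largest rise. Its CDKO-labelled embryos ranged from 41.8 to 61.8 CPM with a median of 50.9 CPM. The 4 WT embryos stood at 29.5, 32.5, 38.3 and 37.9 CPM. The lowest CDKO-labelled embryo was therefore above the highest WT embryo. The log2 fold change was 0.59 (SE 0.11, edgeR adjusted p = 0.000424), a 1.5-fold higher level (95% interval 1.28 to 1.77), and its absolute size exceeded that of 81.7% of all genes tested. The annotation places Gm15217, a predicted gene with at most 6 counts in any embryo, over Bmp4.

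Bmp2, a close relative of Bmp4 that is expressed in heart-forming mesoderm and surface ectoderm, rose as well. It ranged from 20.2 to 33.2 CPM with a median of 24.2 CPM in CDKO-labelled embryos. In WT embryos it stood at 16.8, 13.9, 20.6 and 18.3 CPM. The overlap came from 1 WT embryo, the third, which lay above the lowest CDKO-labelled embryo. The log2 fold change was 0.51 (SE 0.13, adjusted p = 0.00584).

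Bmp5 and Bmp7 encode ligands of another subgroup, with shared roles in heart, allantois and branchial arch development. Bmp5 ranged from 20.5 to 29.4 CPM with a median of 23.9 CPM in CDKO-labelled embryos, and stood at 28.4, 25.0, 31.6 and 30.0 CPM in WT embryos. It fell by 0.25 on the log2 scale (SE 0.09, adjusted p = 0.0277), with 7 of 8 CDKO-labelled embryos below the WT mean. The call was lost without WT embryo 1 (adjusted p = 0.0527), WT embryo 3 (0.101) or WT embryo 4 (0.0806), after adjustment for the red cell score (0.0598) and with GC and length trends removed (-0.17, adjusted p = 0.148). Bmp7 ranged from 39.8 to 51.7 CPM with a median of 46.5 CPM in CDKO-labelled embryos, against 40.5, 42.2, 44.3 and 44.5 CPM in WT embryos. Its log2 difference of 0.11 did not pass (95% interval -0.03 to 0.26, adjusted p = 0.173) and was -0.02 with the GC and length trends removed. The 4 ligands thus included 2 that rose, 1 that fell and 1 that did not pass.

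Among the extracellular modulators, Twsg1, which encodes the secreted twisted gastrulation protein that binds BMP and chordin and can both help and hinder signalling, showed the lowest p of the 10 genes. It ranged from 86.1 to 103.2 CPM with a median of 92.1 CPM in CDKO-labelled embryos. The WT embryos stood close together, at 135.6, 136.0, 135.8 and 139.2 CPM. The groups were far apart. The log2 fold change was -0.55 (SE 0.05, adjusted p = 3.25e-07), so the CDKO-labelled level was 0.681 of WT (95% interval 0.634 to 0.732), and its p was the 309th lowest of the 14412. Twsg1 lies on chromosome 17, as does Tgif1. Between the 2 genes, by RefSeq's gene order, lie 17 protein-coding genes of the count table, of which 13 were tested and, among those, 7 rose and 2 fell (69.2%, against 51.5% of all genes tested). Tgif2 lies on chromosome 2, as do Bmp2, Bmp7 and Id1. The part of these shared chromosomes in the Twsg1, Bmp2, Bmp7 and Id1 results was not tested.

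Chrd and Nog, the chordin and noggin genes, did not pass. Nog ranged from 8.54 to 13.3 CPM with a median of 10.3 CPM in CDKO-labelled embryos, and stood at 14.4, 11.8, 9.73 and 12.3 CPM in WT embryos. The ranges overlapped, and 7 of 8 CDKO-labelled embryos lay below the WT mean. The log2 difference was -0.20 (95% interval -0.48 to 0.08, adjusted p = 0.21). Nog passed as lower after adjustment for the red cell score (-0.41, adjusted p = 0.00689) and with GC and length trends removed (-0.39, adjusted p = 0.0105). Without WT embryo 1, the highest of the 12, the difference was -0.11 (adjusted p = 0.553), and Nog passed in none of the settings that left out 1 embryo. The fit adjusted for the red cell score includes CDKO-labelled embryo 2. That embryo had the most Nog of its group and the lowest red cell marker sum.

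Chrd was the rarest of the 10, with 33 to 52 counts per CDKO-labelled embryo and 31 to 62 counts per WT embryo. In CPM it ranged from 1.69 to 2.74 with a median of 2.39 in CDKO-labelled embryos, and stood at 1.80, 3.04, 2.76 and 3.09 in WT embryos. Counting alone gives a coefficient of variation of 15.0% at its CDKO-labelled depth, where 14.3% was measured, and of 14.1% at its WT depth, where 22.5% was measured. Its log2 difference of -0.19 had a 95% interval of -0.55 to 0.18 (adjusted p = 0.376), and it was -0.34 without WT embryo 1 and -0.11 without WT embryo 4. The gene span of Chrd overlaps that of Thpo in the annotation. Thpo had 5 to 24 counts in CDKO-labelled embryos and 16 to 28 counts in WT embryos. Shared exon bases were not examined, and without a stated strand setting reads in any such bases cannot be told apart.

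The Id genes were all higher on average, by small amounts. Id1 ranged from 95.7 to 145.9 CPM with a median of 110.2 CPM in CDKO-labelled embryos, against 99.3, 100.2, 88.5 and 98.5 CPM in WT embryos. Its log2 fold change was 0.24 (SE 0.09, adjusted p = 0.0431), higher than the WT mean in 7 of 8 embryos, and 0.18 without CDKO-labelled embryo 2 (adjusted p = 0.0376). The call was lost without any 1 of the 4 WT embryos (adjusted p of 0.0662 to 0.141) or without CDKO-labelled embryo 4, 5 or 6 (0.0545 to 0.0688). It was also lost after adjustment for the red cell score (0.09, adjusted p = 0.302) and with GC and length trends removed (0.07, adjusted p = 0.457).

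Id2 ranged from 125.6 to 160.2 CPM with a median of 138.9 CPM in CDKO-labelled embryos, against 124.6, 120.3, 121.0 and 126.1 CPM in WT embryos. All 8 lay above the WT mean, and the lowest lay under the highest WT embryo. The log2 fold change was 0.17 (SE 0.06, adjusted p = 0.0189), and 0.14 without CDKO-labelled embryo 2 (adjusted p = 0.0186). The call was lost without WT embryo 2 (adjusted p = 0.0586) or WT embryo 3 (0.0601) and after adjustment for the red cell score (0.12, adjusted p = 0.107).

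Id3, the most abundant of the 10, ranged from 228 to 331 CPM with a median of 254 CPM in CDKO-labelled embryos, against 239.8, 220.1, 214 and 242.8 CPM in WT embryos. The ranges overlapped widely. Its log2 difference of 0.18 (SE 0.08) did not pass (adjusted p = 0.0675), was 0.12 without CDKO-labelled embryo 2 (adjusted p = 0.0529) and 0.01 with GC and length trends removed. It passed without CDKO-labelled embryo 1 (0.21, adjusted p = 0.0356). In absolute size the Id1, Id2 and Id3 differences exceeded those of 47.0%, 35.7% and 37.2% of all genes tested.

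**Figure D2:**
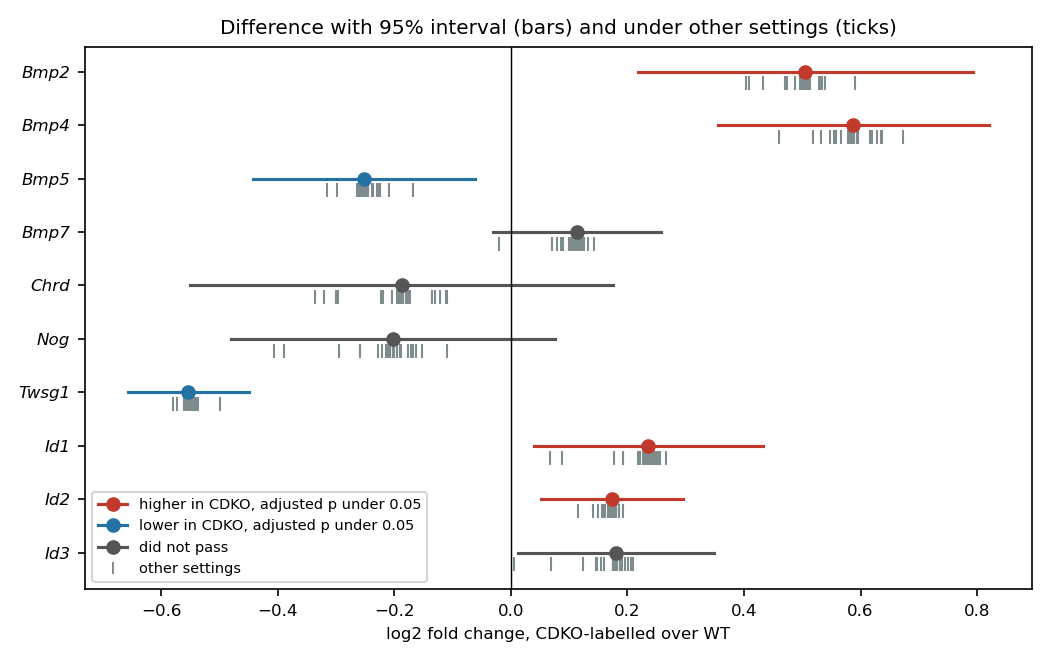
Log2 fold change of each gene, CDKO-labelled over WT (horizontal axis), with its 95% interval, and grey ticks for the 26 alternative settings. Only Bmp7 has a tick on the other side of 0, and Id1 and Id3 have ticks close to 0.

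Per kilobase of exon, on which levels of different genes can be set side by side, the Id genes led in both groups. In CDKO-labelled embryos Id3 had the highest median at 142 CPM per kb, followed by Id1 at 95.01 and Id2 at 57.0. Bmp4 (22.6) and Twsg1 (17.9) came next and their ranges overlapped. Bmp7 stood at 11.6, then Bmp2 (6.80), Nog (6.11) and Bmp5 (5.94), which overlapped one another, and Chrd was last at 0.382. In WT embryos the medians were 128.4 for Id3, 85.2 for Id1 and 50.4 for Id2 in the same unit. There Twsg1 (26.4) was above Bmp4 (15.7) with no overlap, and Bmp5 (7.26) and Nog (7.10) were above Bmp2 (4.94), though Bmp2 and Nog overlapped. Exon lengths are those of GENCODE M21 on GRCm38, while the counts were made on mm9.

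The order of Bmp4 and Twsg1 per kilobase thus differed between the groups. A ratio of counts within an embryo is one that no scaling of the library can move. The Bmp4 to Twsg1 count ratio was 0.561 ± 0.0938 in CDKO-labelled embryos and 0.253 ± 0.0300 in WT embryos (SD, n = 8 and 4). The lowest CDKO-labelled embryo stood at 0.447 and the highest WT embryo at 0.282. The Bmp2 to Bmp5 ratio averaged 1.02 ± 0.127 in CDKO-labelled embryos and 0.603 ± 0.0407 in WT embryos, with a lowest CDKO-labelled value of 0.879 and a highest WT value of 0.653. Counts of Bmp2 and Bmp4 over those of Nog and Chrd ranged from 4.399 to 7.99 in CDKO-labelled embryos and from 2.86 to 4.72 in WT embryos, and so overlapped. The Id genes together had 3.50 ± 0.475 counts per ligand count in CDKO-labelled embryos and 3.65 ± 0.389 in WT embryos, a difference smaller than either SD. These ratios were chosen after the values were seen and are given without a test.

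**Figure D3:**
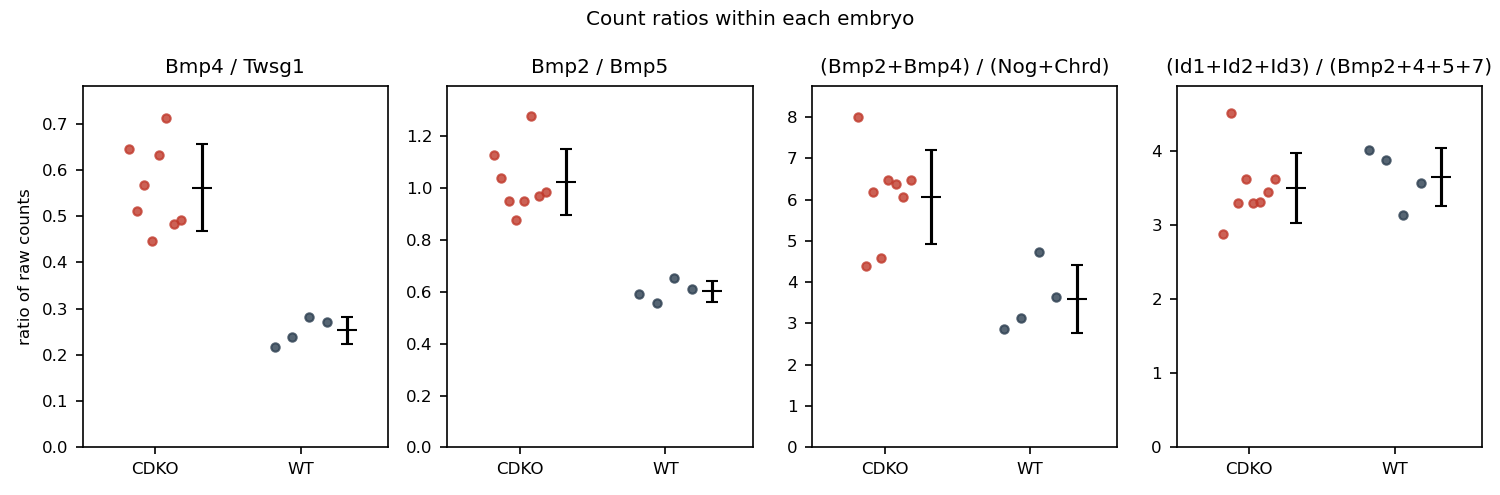
Ratios of raw counts within each embryo (vertical axes from 0), CDKO-labelled embryos in red and WT embryos in dark blue, with mean ± SD (n = 8 and 4). The Bmp4 to Twsg1 and Bmp2 to Bmp5 ratios do not overlap between the groups, and the ratio of Id to ligand counts does.

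Whether the Id genes moved together, or with Bmp4, was asked over the 8 CDKO-labelled embryos for 6 pairs. None passed after adjustment over the 6. Id1 and Id2 had the highest correlation of log2 CPM, with Pearson's r of 0.85 (exact two-sided permutation p = 0.0102, adjusted p = 0.0615) and Spearman's rho of 0.74 (exact p = 0.0458, adjusted p = 0.275). Without embryos 2 and 8, the farthest from the Id1 median, r was 0.68. Id1 with Id3 gave r of 0.66 (exact permutation p = 0.0993, adjusted 0.22) and rho of 0.19 (exact p = 0.665), and r was -0.09 without embryos 2 and 8. For Id2 with Id3 r was 0.58 (exact permutation p = 0.152, adjusted 0.228) and rho -0.02 (exact p = 0.977), and r was -0.69 without embryos 2 and 3. Both Id3 relations rested on the embryos left out. Embryo 2 was one of them in each case, and in it Id1 stood at 145.9, Id2 at 160.2 and Id3 at 331 CPM, each the highest of the 12 embryos.

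No relation of Bmp4 with an Id gene passed across CDKO-labelled embryos. With Id1 r was -0.09 (exact permutation p = 0.847) and rho 0.12 (exact p = 0.793), with Id2 r was -0.16 (exact permutation p = 0.708) and rho 0.05 (exact p = 0.935), and with Id3 r was -0.59 (exact permutation p = 0.11) and rho -0.55 (exact p = 0.171). Adjusted over the 6 pairs, the Pearson p was 0.847 for the first and second and 0.22 for the third, and the Spearman p was 0.977, 0.977 and 0.513. Without embryos 4 and 6, the farthest from the Bmp4 median, r was -0.36, -0.28 and -0.81 in the same order. Embryo 6, with the most Bmp4 at 61.8 CPM, had 241.6 CPM of Id3, and embryo 2, with the most Id3, had 44.0 CPM of Bmp4.

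Over all 12 embryos, after each group's mean was subtracted, Bmp2 varied with Bmp5 (r = 0.79) and Bmp4 (r = 0.70), and Nog with Id1 (r = 0.86), while Twsg1 and Id1 varied in opposite ways (r = -0.81). Without CDKO-labelled embryo 2 these were 0.79, 0.75, 0.83 and -0.77, and the r of Id1 with Id3 was 0.04, against 0.66 with it. These pairs share their libraries and were picked from 45 after the values were seen, so they are given as a description.

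**Figure D4:**
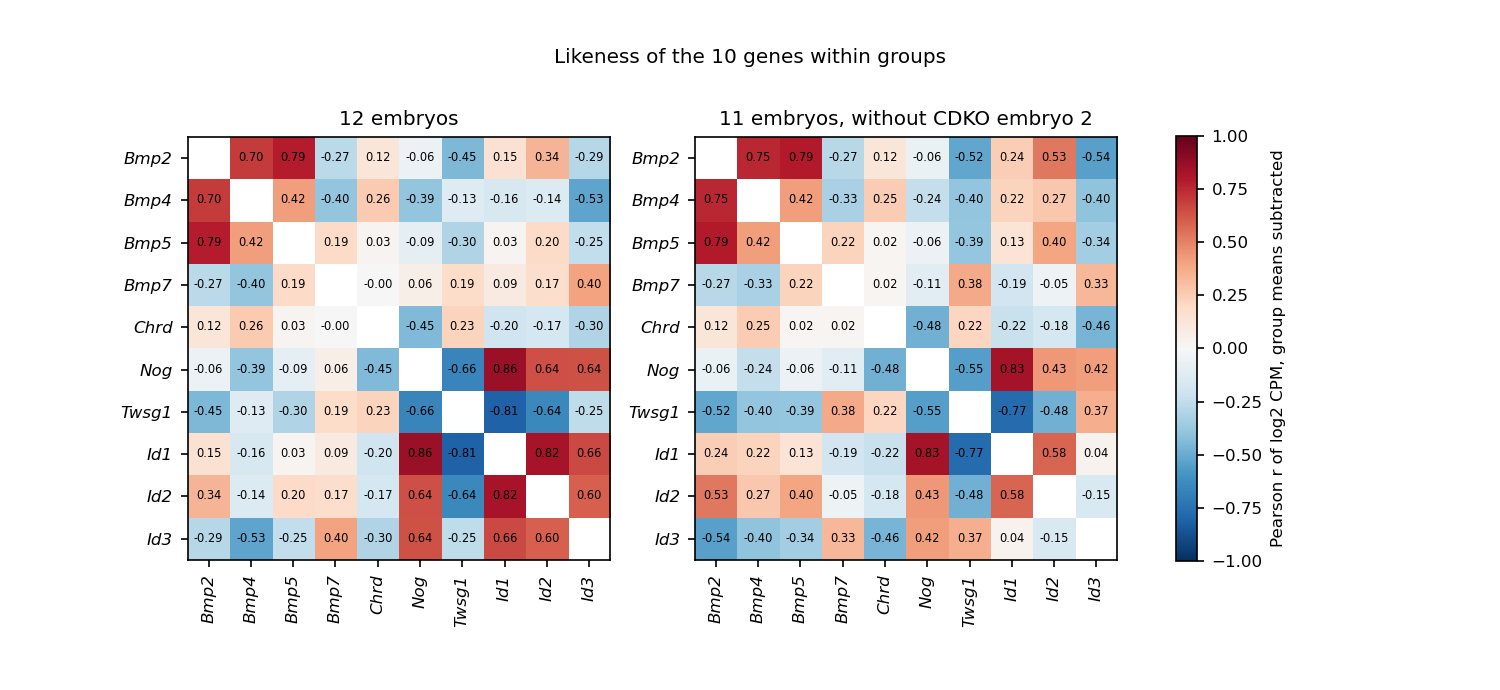
Pearson's r of log2 CPM between each pair of the 10 genes after subtraction of group means, over 12 embryos (left) and without CDKO-labelled embryo 2 (right); red is positive and blue negative. Id3 with Id1 and with Id2 is pale on the right, while Bmp2 with Bmp5 and Nog with Id1 stay dark.

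The same measure was taken against 10501 other genes with at least 5 CPM. The nearest to Bmp4 was Snai2 (r = 0.89), a neural crest and mesenchyme transcription factor gene. Nearest to Nog were Zmat3 (0.94) and Hes3 (0.93), a Hes-family repressor gene of the neural tube. Id3 was nearest to Myl7 (0.93) and Myl4 (0.93), which encode cardiac myosin light chains, and both stood at 0.75 without CDKO-labelled embryo 2. Bmp2 was nearest to Arhgap29 (0.94) and Emp2 (0.94), Bmp5 to Fam160a2 (0.92) and Arhgap29 (0.90), and Bmp7 to Bbs9 (0.91) and Prkg1 (0.86). Twsg1 was nearest to Fam172a and Stxbp4 (both 0.97). Id1 was nearest to Isyna1 (0.93, and 0.83 without CDKO-labelled embryo 2) and Rrp7a (0.92). Id2 was nearest to Ttyh2 (0.94) and Pkdcc (0.85, and 0.60 without CDKO-labelled embryo 2). Chrd was nearest to Anks3 (0.89) and Nudt11 (0.87), and Myo1d (0.88) came second for Bmp4. All these values were picked as the highest of at least 10501 per gene over only 12 embryos. Such a choice yields high r by itself, so they are a description without a test.

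Other genes of the pathway moved in both directions. Of 71 listed, 65 were tested, 20 rose, 13 fell and 32 did not pass, with a median log2 fold change of 0.03. The share called, 50.8%, was close to the 51.5% of all genes tested, so the count does not set the pathway apart. With GC and length trends removed 15 rose and 18 fell, while over all 14412 genes tested 3262 rose and 4466 fell in that setting. The untested genes were Bmp8a, Bmp15, Gdf1, Gdf3, Gdf5 and Chrdl2, and Gdf1 had 0 counts in all embryos.

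Of 9 other ligand genes tested, 3 rose and 2 fell, while 4 missed the threshold (55.6% called, against 51.5% of all genes tested, the share set beside the counts that follow). Gdf10, which encodes a divergent family member also called BMP3b, averaged 10.2 ± 1.23 CPM in CDKO-labelled embryos and 14.5 ± 2.46 CPM in WT embryos (log2 fold change -0.51, SE 0.12, adjusted p = 0.00191). Gdf2, the BMP9 gene, averaged 2.31 ± 1.499 CPM in CDKO-labelled embryos and 0.719 ± 0.481 CPM in WT embryos (1.68, SE 0.56, adjusted p = 0.0237). Bmp8b averaged 0.645 ± 0.259 CPM in CDKO-labelled embryos and 1.13 ± 0.323 CPM in WT embryos (-0.82, SE 0.29) and Gdf7, a roof plate ligand gene, 1.78 ± 0.574 CPM in CDKO-labelled embryos and 1.08 ± 0.226 CPM in WT embryos (0.72, SE 0.27). The last 3 are rare, and of 26 alternatives the call held in 20 for Gdf2, 20 for Bmp8b and 16 for Gdf7.

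Of 11 receptor and co-receptor genes, 3 rose and 3 fell, while 5 missed the threshold (54.5% called, against 51.5%). Bmpr1a, the main type I receptor gene of the early embryo, averaged 170.0 ± 13.0 CPM in CDKO-labelled embryos and 206.2 ± 4.94 CPM in WT embryos (log2 fold change -0.28, SE 0.06, adjusted p = 0.000736), and the type II receptor gene Acvr2b fell by 0.40 (SE 0.11). All 8 CDKO-labelled embryos lay below every WT embryo in both, and in the receptor gene Acvr1, as in 17.1% of all genes tested. Acvrl1, an endothelial type I receptor gene, was higher at 24.0 ± 5.86 CPM in CDKO-labelled embryos, against 12.4 ± 1.51 CPM in WT embryos (0.95, SE 0.16), and the co-receptor gene Hfe2, which encodes hemojuvelin, rose by 1.08 (SE 0.21). In Acvrl1 and Hfe2 all 8 lay above every WT embryo, as in 17.5% of all genes tested. Of 8 endothelial markers 5 rose (62.5%, against 26.6% of all genes) and none fell, with a summed level of 475.2 to 638 CPM in CDKO-labelled embryos and 361 to 429 CPM in WT embryos and no marker at 0. Their part in the Acvrl1 result was not tested.

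Of 10 Smad and inhibitor genes, 5 rose and 4 fell, while 1 missed the threshold (90% called, against 51.5%). The inhibitors split. Bambi, a pseudoreceptor gene that BMP itself induces, averaged 53.2 ± 5.18 CPM in CDKO-labelled embryos and 39.9 ± 1.92 CPM in WT embryos (0.41, SE 0.07, adjusted p = 0.000284), and the inhibitory Smad gene Smad7 27.2 ± 3.01 CPM in CDKO-labelled embryos and 19.7 ± 2.37 CPM in WT embryos (0.46, SE 0.10). Of the ubiquitin ligase genes, which mark Smads and receptors for breakdown, Smurf1 rose by 0.26 (SE 0.06) and Smurf2 fell by 0.31 (SE 0.06). The Smurf1 call was lost with GC and length trends removed (0.13, adjusted p = 0.0797). Among the Smads that carry the signal, Smad5 (-0.25, SE 0.06) and Smad4 (-0.16, SE 0.04) fell. Smad9 rose (0.55, SE 0.16), and Smad1 did not pass (-0.08, SE 0.05). These Smad genes were added after their values were seen.

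Of 19 other extracellular modulator genes, 3 rose and 3 fell, while 13 missed the threshold (31.6% called, against 51.5%). Bmp1, which encodes a protease that cleaves chordin, averaged 57.5 ± 2.87 CPM in CDKO-labelled embryos and 45.5 ± 1.09 CPM in WT embryos (0.34, SE 0.05, adjusted p = 5.38e-05). Kcp, which encodes a chordin-like protein that can raise BMP signalling, stood at 8.99 ± 1.59 CPM in CDKO-labelled embryos and 4.45 ± 0.908 CPM in WT embryos (1.01, SE 0.16). Chrdl1, a chordin-like antagonist gene, stood at 11.7 ± 1.55 CPM in CDKO-labelled embryos and 19.8 ± 2.79 CPM in WT embryos (-0.76, SE 0.11), and Cer1, an antagonist of BMP and Nodal, at 1.12 ± 0.795 CPM in CDKO-labelled embryos and 6.01 ± 2.10 CPM in WT embryos (-2.43, SE 0.44).

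Of 16 other transcription factor genes that respond to BMP, 6 rose and 1 fell, while 9 missed the threshold (43.8% called, against 51.5%). The 4 with the lowest p were heart and lateral mesoderm regulators. Hand1 averaged 155.5 ± 38.7 CPM in CDKO-labelled embryos and 64.3 ± 13.2 CPM in WT embryos (1.27, SE 0.21, adjusted p = 0.00031), Tbx2 rose by 0.75 (SE 0.14), Tbx20 by 0.67 (SE 0.12) and Gata4 by 0.77 (SE 0.18). Msx1 and Msx2, widely used readouts of BMP in dorsal neural tissue and limb, had log2 differences of -0.03 (SE 0.10) and 0.14 (SE 0.09) and did not pass, nor did Id4 at 0.13 (SE 0.12). Dlx5 and Nkx2-5 rose as well (0.40, SE 0.11, and 0.63, SE 0.15), and Lef1 fell (-0.50, SE 0.12). The inhibitory Smad gene Smad6, of the Smad and inhibitor list, rose by 0.53 (SE 0.13). These genes, from Msx1 to Smad6, were singled out after their values were seen.

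**Figure D5:**
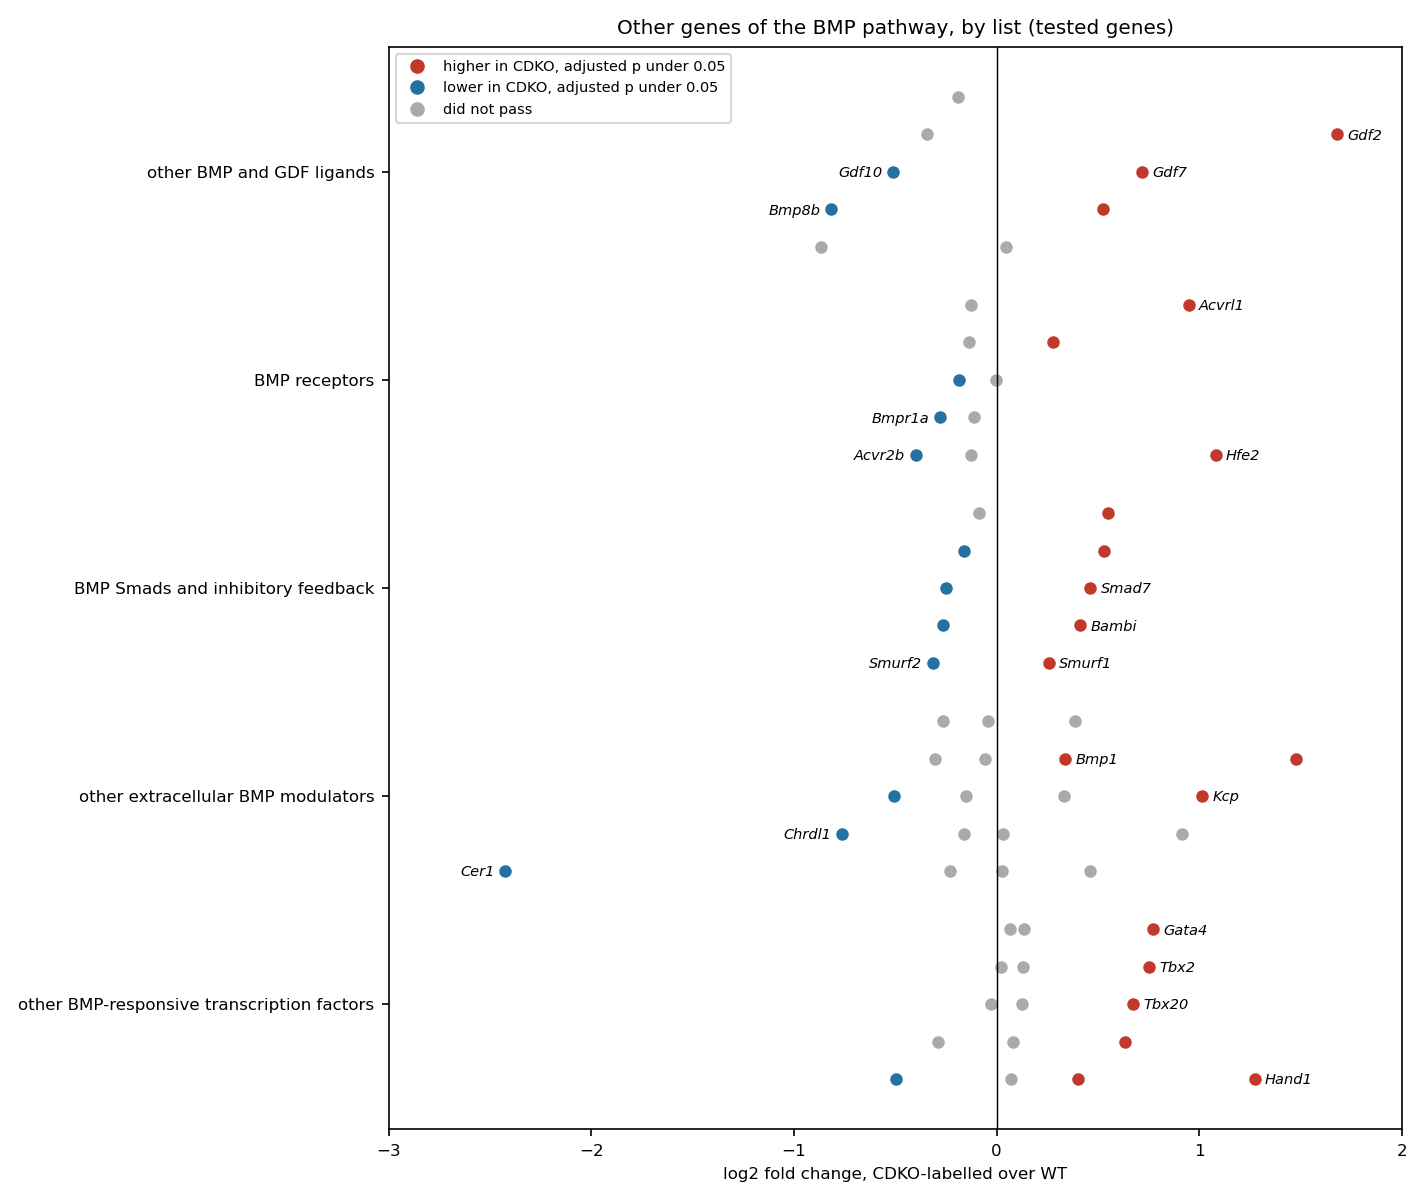
Log2 fold change, CDKO-labelled over WT (horizontal axis), of the 65 tested genes in 5 lists of other BMP pathway genes, 1 point per gene, with height within a list used only to separate points. Every list holds genes on both sides of 0, and the genes with the lowest p in each list are named.

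Marker genes of tissues that express these genes were counted in the same way, and the counts read against the 26.6% of all genes that rose and the 24.9% that fell. Of 12 heart markers 10 rose (83.3%) and none fell, with a summed level of 2399 to 4315 CPM in CDKO-labelled embryos and 1559 to 1978 CPM in WT embryos. Of 9 lateral mesoderm and allantois markers 5 rose (55.6%) and none fell, with sums of 397.7 to 696.9 CPM in CDKO-labelled and 264.7 to 360.9 CPM in WT embryos. Of 6 notochord and floor plate markers, where Chrd and Nog are expressed, none rose and 2 fell (T and Shh, 33.3%), with sums of 48.7 to 94.2 CPM in CDKO-labelled and 96.0 to 124.2 CPM in WT embryos. T is also among the tail bud markers, and averaged 26.1 CPM in CDKO-labelled and 51.5 CPM in WT embryos. Noto, Foxa1, Foxa2 and Foxj1 did not pass. Of 9 tail bud markers none rose and 5 fell (55.6%), with sums of 50.0 to 223 CPM in CDKO-labelled and 257.4 to 348.8 CPM in WT embryos. Wnt3a is counted among the genes that fell in both the tail bud and the dorsal neural tube lists. Of 8 dorsal neural tube markers 2 rose (25%) and 3 fell (37.5%, with sums of 121.8 to 171.3 CPM in CDKO-labelled and 154.8 to 177 CPM in WT embryos), and of 8 surface ectoderm markers 2 rose (25%) and 1 fell (12.5%, with sums of 561.2 to 1074 CPM in CDKO-labelled and 547.7 to 631.8 CPM in WT embryos). The surface ectoderm genes that rose were the abundant Krt8 and Krt18 (log2 fold change 0.77 and 0.51). Epcam fell (-0.27), and the median of the list was -0.18. Yolk sac endoderm and primitive red cell markers had no call among 10 and 9 genes, with median log2 fold changes of 0.09 and -1.03. Their sums were 723.4 to 3402 CPM in CDKO-labelled and 635.8 to 2344 CPM in WT embryos for yolk sac, and 37.7 to 1725 CPM in CDKO-labelled and 813.3 to 1360 CPM in WT embryos for red cells. The median red cell sum was 386.7 CPM in CDKO-labelled and 1036 CPM in WT embryos. The red cell score is made from these genes, and how far it stands in for genotype as a covariate was not tested. Of 10 trophoblast and decidua markers 2 were tested and neither passed, with sums of 4.48 to 79.8 CPM in CDKO-labelled and 5.01 to 11.98 CPM in WT embryos, and Prl8a9 was at 0 in all embryos. No marker was at 0 in the other lists. Beyond the adjustments for the red cell and yolk sac scores, the part of these tissues in the BMP results was not tested.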

How the data were processed

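Single whole embryos were sequenced after poly-A selection as 50-base read pairs, per the labels' protocols. The table the authors deposited holds raw counts for each gene symbol and embryo. FastQC, STAR, featureCounts and DESeq2 with genome build mm9 are named, per the submitters' processing notes; no source used here gives their versions, the gene annotation, the strand setting or how multi-mapping reads were counted. Replicate numbers follow sample order and pair nothing. Embryos are the replicates, and since the labels give no litters, p-values measure only the spread between these embryos. No 2 libraries of a group agreed within sampling noise: the lowest chi-square per degree of freedom was 3.89.

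Counts were tested in R 4.3.3 with edgeR 4.0.16: genes were kept by filterByExpr, libraries scaled by TMM, dispersions estimated robustly and genotype tested by the quasi-likelihood F test without covariates, with Benjamini-Hochberg adjustment over the 14412 genes tested and a threshold of 0.05. The SE is the log2 fold change over the square root of F, and the 95% intervals use the test's degrees of freedom and no adjustment. Alternatives were DESeq2 1.42.0, voom in limma 3.58.1 with and without quality weights, upper-quartile or RLE scaling, other filters, dispersions that were not robust, embryos left out, adjustment for a yolk sac or a red cell score, removal of the 50 most abundant genes, GC and length trends removed, and a threshold of 0.01.

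The genes and lists were chosen with earlier results of these data known. All 10 genes are named whatever their values, with the up to 4 lowest p of each other pathway list and the 2 genes most alike within groups. Promoters are RefSeq's on GRCm38.p6; near-identical copies are GENCODE M21 transcripts with at least 200 bases at 95% identity, and none was found for the 10 genes.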

Additional observations from a re-analysis of the deposited data

Results flagged for a closer look

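In 8 of 64 groups of embryos (32 genes in CDKO-labelled and in WT embryos) 1 embryo lay far from the others of its group. Chance gives about 1 in 20, and the groups share embryos. Among the 10 BMP genes, Id3 stood at 331 CPM in CDKO-labelled embryo 2, against 228 to 263 CPM in the other CDKO-labelled embryos. Id1 stood at 88.5 CPM in WT embryo 3, against 98.4 to 100 CPM in the other WT embryos. Twsg1 stood at 139 CPM in WT embryo 4, against 136 CPM in the others. Its measured coefficient of variation in WT embryos, 1.27%, was below the 1.98% that counting alone gives. That gap is therefore no larger than counting noise. Among the other pathway genes, Acvrl1 stood at 37.5 CPM in CDKO-labelled embryo 6, against 19.3 to 25.3 CPM in the others of that group, and Hfe2 at 4.43 CPM in CDKO-labelled embryo 2, against 2.31 to 3.20 CPM. In WT embryo 3, Smurf1 stood at 65.9 CPM (55.3 to 56.1 CPM in the other WT embryos), Tbx2 at 20.5 CPM (12.5 to 13.5 CPM) and Tbx20 at 51.3 CPM (36.5 to 38.8 CPM).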

How the results depend on the processing

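Bmp2 (log2 fold change 0.40 to 0.59), Bmp4 (0.46 to 0.67) and Twsg1 (-0.58 to -0.50) kept their direction and their call in all 26 alternatives, and Chrd (-0.34 to -0.11) passed in none. With GC and length trends removed Bmp7 changed sign (-0.021), Id1 (0.068) and Bmp5 (-0.17) lost their calls and Nog passed (-0.39). In that setting the median log2 fold change of all genes tested shifted by -0.064. After adjustment for the red cell score Id1 (0.088), Id2 (0.12) and Bmp5 (-0.25) lost theirs, Nog passed (-0.41) and 2 of the 10 genes were higher. Id1 also missed the threshold with limma-voom (0.23) and with the yolk sac score as a covariate (0.23), and Id3 passed with sample quality weights (0.18). Without CDKO-labelled embryo 2 and WT embryo 1 together Bmp5 (-0.25) and Id1 (0.19) did not pass, Id3 did (0.15) and 1 gene was lower. At a threshold of 0.01 Bmp5 (-0.25), Id1 (0.24) and Id2 (0.17) did not pass, leaving 2 higher and 1 lower. With each embryo left out in turn 2 to 5 genes were higher and 1 to 2 lower, with Bmp5 at -0.32 to -0.21, Id1 at 0.18 to 0.27, Id2 at 0.14 to 0.19 and Id3 at 0.12 to 0.21. The correlations then spanned -0.21 to 0.79 for Id1 with Id3, -0.48 to 0.78 for Id2 with Id3, -0.29 to 0.49 for Bmp4 with Id1 and -0.28 to 0.34 for Bmp4 with Id2, and the r of Id2 and Id3 within groups, 0.60 over 12 embryos, was -0.15 without CDKO-labelled embryo 2, an alternative chosen after seeing the data. The cause of these changes was not tested. The other pathway lists together had 15 to 20 genes higher and 10 to 18 lower over all alternatives. No paired analysis was possible because the labels give no replicate numbers. Counts were low for Chrd (33 to 52 in CDKO-labelled and 31 to 62 in WT embryos).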
